A study of Homo sapiens with 2 samples.

Results

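The genes described here build the Golgi apparatus and the COPI and COPII vesicle coats, and 38 of them were chosen by name. A probe set, the group of probes that reports 1 transcript on the array, was used only where it carried exactly 1 gene symbol, and 37 of the 38 genes then had values, out of 19775 genes on the arrays. USO1, which tethers vesicles to the Golgi, had no such probe set and was not analysed here. The 37 genes were read by 81 probe sets, and each gene was represented by its brightest one, that with the highest mean log2 value over both arrays. They fall into 5 classes, namely Golgi matrix and tethering (8 measured genes), the COPI coat (9), ARF GTPases and their exchange factors (7), the COPII coat (11) and SNAREs (2).

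HSC-3, a human cell line in long use, comes from an aggressive squamous carcinoma of the tongue. The cells on both surfaces carried a red fluorescent protein, brought in by a lentivirus with a non-coding control sequence, and had been selected with puromycin. They were grown on uncoated plastic or on a coating of Myogel, a protein extract of human uterine leiomyoma, and were seeded at 90000 cells and harvested the following day, with the RNA of 3 wells pooled for each surface. The pools were hybridised to 1 Affymetrix array each, so that no difference has a replicate check, no p-value is given, and precision is limited by having 1 array a surface. One protocol label describes uncoated plates for both samples, and the surfaces were taken from the titles.

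Newly made secretory proteins leave the endoplasmic reticulum in vesicles coated with COPII, which assembles when the GTPase SAR1 binds the membrane and recruits SEC23 with SEC24 and then SEC13 with SEC31. COPI, a coatomer of several subunits recruited by ARF GTPases, returns escaped proteins from the Golgi to the endoplasmic reticulum. Golgins and GRASP proteins hold the Golgi stacks together and capture vesicles, and SNAREs fuse them with the target membrane.

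Squamous markers were bright on both arrays. The 7 measured ones had intensities from 1051 to 18856 on plastic and from 1073 to 18224 on Myogel, and none of them differed by a fold change (FC) of 1.5 or more. Markers of fibroblasts had medians of 57.3 on plastic and 54.9 on Myogel, and 1 of 6, the dim COL1A2 with 14.0 and 21.7, was higher by FC 1.5. Those of smooth muscle had medians of 89.4 and 75.9, and Myogel is made from leiomyoma, a benign smooth muscle tumour. The summed level of the 6 smooth muscle markers was 1111 on plastic and 1114 on Myogel, most of it from ACTA2 with 703 and 756, and by FC 1.5 1 marker was higher and 2 were lower. Of 4 endothelial markers, with medians of 84.0 and 47.1, 3 were lower, and of 3 measured blood markers 1 was lower. The lower endothelial markers, CDH5, KDR and VWF, were each under 100 on both arrays. Over all genes on the arrays, 9.71% were higher and 17.5% were lower by FC 1.5, and most of those were dim. Among the control probe sets, the ratio of the 3′ to the 5′ probe set of ACTB was 3.19 on plastic and 6.10 on Myogel, and that of GAPDH was 1.10 and 1.22. Over all 54613 probe sets that are not controls, the median log2 FC of Myogel over plastic was -0.11, and it was -0.03 over the 9888 genes whose signal reached the gene median of 142.

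Expression of the Golgi and coat genes was close between the surfaces. With FC 1.5 or more on Myogel, 0 of the 37 measured genes were higher, 2 were lower, and 35 passed neither limit. The lower ones were ARF1, a GTPase that recruits COPI, and COPE, the epsilon subunit of COPI. Over all genes on the arrays, 9.71% were higher and 17.5% were lower by this measure, but most of those were dim. Among those that reached the median signal, to which 34 of the 37 belong (91.9%), 0.930% were higher and 1.66% were lower, and 1 of the 34 (2.94%), COPE, was lower. The median log2 FC of the 37 genes was -0.05, with 16 above 0 and 21 below. With the median log2 ratio of all probe sets set to 0 it was 0.056, beside 0.075 over all genes at or above the median signal. The SD was 0.18 over the 34 brighter genes against 0.26 over all 9888 genes at or above the median signal. These sets are not matched for signal, since the 37 genes had a median of 1730 on plastic and the limit was 142. Over all probe sets, the middle 95% of log2 FCs ran from -0.88 to 0.66 near a signal of 150 and from -0.48 to 0.45 near 1405. With FC 1.2 or more, 0 were higher and 4 were lower, the other 2 being GOLGA1 and ARF5. Of the 34 brighter genes, 3 (8.82%) were lower by FC 1.2. Among all genes at or above the median signal, again not matched for signal, 13.5% were lower and 8.93% were higher. The shares of lower genes thus lay near the background, and each of the 37 values was inside the span of 95% of the log2 FCs of the 1000 probe sets closest to it in signal, here called the range for its signal. In RNA from a whole culture, fewer cells of a kind and less RNA per cell cannot be told apart.

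**Figure D1:**
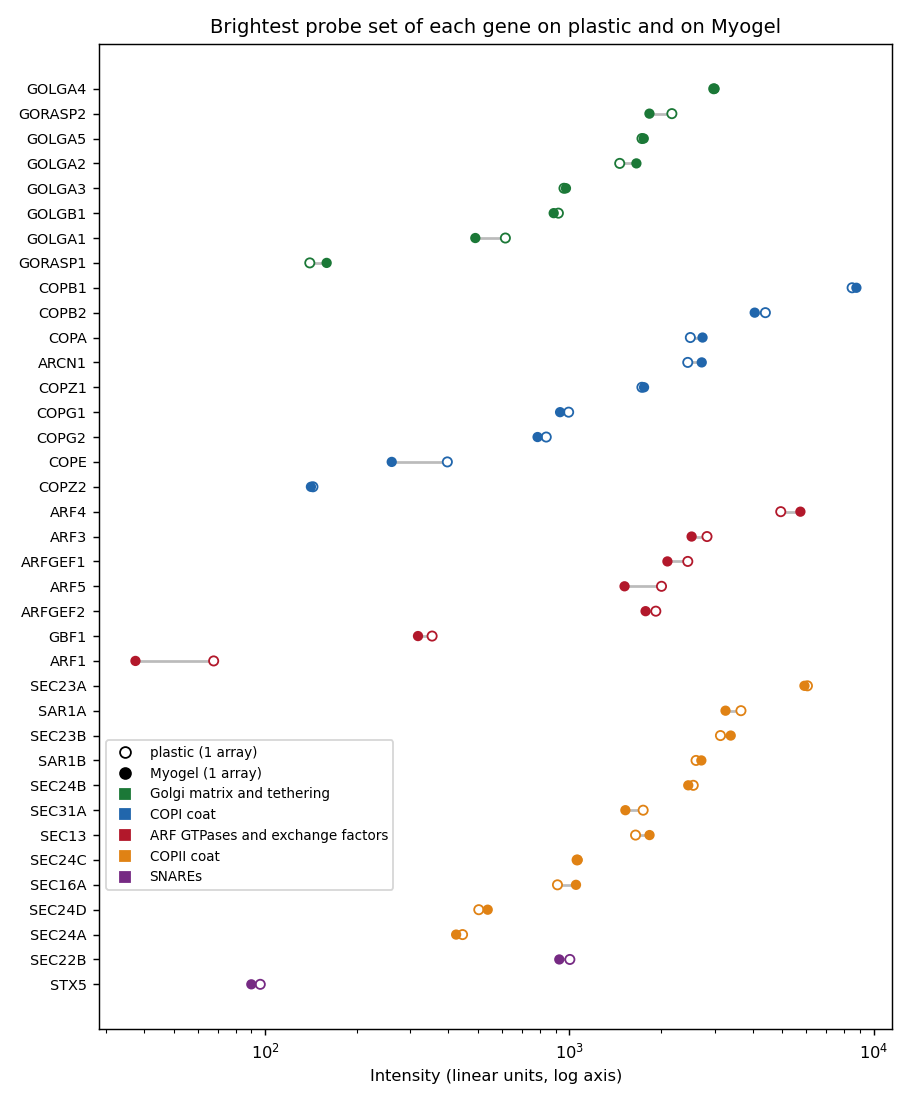
Intensity (x axis, linear units on a log axis) of the brightest probe set of each of the 37 measured genes (rows), with open circles for the plastic array and filled circles for the Myogel array, coloured by class. The paired circles lie close together for most genes, and the widest gaps are those of ARF1 (67.6 and 37.4) and COPE (397 and 260.3).

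Levels are given by class as a description, since the intensity of a probe set also depends on its probes, and no gene is ranked above another. The brightest probe sets of the Golgi matrix genes ran from 140.0 to 2980 on plastic, with a median of 1211. Those of the COPI coat ran from 143 to 8498, with a median of 1730. The ARF GTPases and exchange factors had values from 67.6 to 4951 and a median of 2007, and the COPII coat had values from 445 to 6059 and a median of 1747. On Myogel the medians of these 4 classes were 1317, 1759, 1779 and 1833. The SNAREs SEC22B and STX5 had 1003 and 96.2 on plastic, and 926 and 89.9 on Myogel.

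The golgins and the GRASP proteins differed little between the surfaces. The median log2 FC of the 8 measured genes was 0.01 (0.12 with the median log2 ratio set to 0), and none passed FC 1.5. GOLGA4, a golgin of the trans-Golgi network, had 2980 on plastic and 2999 on Myogel. GOLGA5, a golgin anchored in the membrane, had 1732 and 1755, and GOLGA3 had 959 and 974. GOLGB1, the giant golgin that captures COPI vesicles, had 919 on plastic and 887 on Myogel. These 4 were within a few percent of equal on both arrays. GOLGA1, another golgin of the trans-Golgi network, had the lowest FC of the class, with 615 on plastic and 490.2 on Myogel (log2 FC -0.33), and its other probe set had 472 and 389. Both GOLGA1 probe sets were lower on Myogel.

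GORASP1 and GORASP2 encode the GRASP proteins of the stacks. GORASP2 had 2171 on plastic and 1832 on Myogel in its brightest probe set, but 1439 and 1654 in the second and 1363 and 1460 in the third. Its probe sets therefore disagree in direction. The same holds for GORASP1, with 140.0 on plastic and 159 on Myogel in 1 probe set and 149.9 and 136 in the other. GOLGA2, a golgin of the cis-Golgi that binds a GRASP protein, was read by 4 probe sets. Its brightest had 1463 on plastic and 1660 on Myogel, another had 467 and 549, and the dimmest had 152 and 185. The remaining one went the other way with 316 on plastic and 182 on Myogel (log2 FC -0.80), outside the range of -0.73 to 0.67 for its signal.

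In the COPI coat, COPE was lower and the other 8 genes were within FC 1.2. COPE had 397 on plastic and 260.3 on Myogel, a 1.52-fold difference (log2 FC -0.61), while the range of 95% of the probe sets of like signal was -0.68 to 0.57. Its other probe set was dim on both arrays, with 6.59 and 4.18. COPE was just past the threshold, and after quantile normalization, loess centring, setting the median log2 ratio to 0 or adding an offset of 16 or 50 its log2 FC was -0.55, -0.55, -0.50, -0.58 and -0.53, under FC 1.5.

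The remaining subunits of the coatomer stayed close to equal. COPB1, the beta subunit, had 8498 on plastic and 8779 on Myogel, and COPB2, the second beta-type subunit, had 4407 and 4065. COPA, the alpha subunit, had 2497 and 2739 (log2 FC 0.13). ARCN1, the delta subunit, had 2448 on plastic and 2722 on Myogel, the highest FC of the class (log2 FC 0.15). None of these differences came near to that of COPE. The paralogous gamma subunits COPG1 and COPG2 both had a log2 FC of -0.09, with 994 and 931 for COPG1 and 839 and 785 for COPG2. COPZ1, a zeta subunit, had 1730 on plastic and 1759 on Myogel, and its second probe set, of like signal, had 1733 and 1307 (log2 FC -0.41). Its paralog COPZ2 had 143 and 141. The median log2 FC of the 9 COPI genes was -0.02, and 0.085 with the median log2 ratio set to 0.

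Dim probe sets of COPI genes gave large ratios that the brighter ones did not show. Beside its brightest probe set, COPA had others with 29.8 on plastic and 2.76 on Myogel, with 105 and 153, and with 143 and 126. Thus COPA had probe sets that differed in both directions. The dimmest probe set of COPB1 had 18.4 on the plastic array and, on the Myogel array, the floor of 1 that is the lowest value of the data, while the second had 5643 and 5526.

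The ARF GTPases and their exchange factors had a median log2 FC of -0.17, with 6 of 7 genes below 0. This median was -0.061 with the median log2 ratio set to 0 and -0.40 with the mean over probe sets. ARF1 had 67.6 on plastic and 37.4 on Myogel, a 1.81-fold difference (log2 FC -0.85), and the probe sets nearest in signal ranged from -1.41 to 1.43. This value comes from a single dim probe set, and 3 further probe sets that carry a second gene symbol beside ARF1 were not used. With an offset of 50 its log2 FC was -0.43, under FC 1.5. ARF5 had 2007 on plastic and 1517 on Myogel (log2 FC -0.40), within the range of -0.43 to 0.42 for its signal, and was read by 1 probe set. ARF3 had 2832 and 2521, and its other probe sets had 1697 and 1616, and 229.9 and 232. ARF4 was the member with the highest FC of all 37, with 4951 on plastic and 5745 on Myogel (log2 FC 0.21), but its second probe set had 2617 and 2137 (log2 FC -0.29). The 4 ARF genes thus did not go one way.

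The exchange factors load ARF with GTP, GBF1 at the cis-Golgi and ARFGEF1 and ARFGEF2 at the trans-Golgi network. ARFGEF1 had 2449 on plastic and 2099 on Myogel in its brightest probe set (log2 FC -0.22). Its other probe sets, with 478 and 300.4 and with 337 and 219, had log2 FCs of -0.67 and -0.62. All 3 probe sets of ARFGEF1 were lower on Myogel, and the last 2 lay past FC 1.5 but inside the ranges for their signal. ARFGEF2 had 1923 and 1779, while its dimmer probe sets had 504 and 596, 146 and 112, and 5.61 and the floor of 1. GBF1 had 353 on plastic and 318 on Myogel in its only probe set.

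Genes of the COPII coat stayed close to equal. All 11 measured genes were within FC 1.2, their log2 FCs ran from -0.19 to 0.20, and their median was 0.01, or 0.11 with the median log2 ratio set to 0. SEC16A, which marks the exit sites where the coat forms, had 913 on plastic and 1051 on Myogel, the highest FC of the class. SEC31A, of the outer coat, had 1747 and 1527, the lowest of the class, and its second probe set had 1592 and 1538. SEC13, the partner of SEC31 in the outer coat, had 1649 on plastic and 1833 on Myogel. The outer coat genes SEC13 and SEC31A therefore had small differences of opposite sign.

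SAR1A and SAR1B encode the forms of the GTPase that starts the coat. SAR1A had 3663 on plastic and 3259 on Myogel, with 2846 and 2495 in its second probe set and 388 and 437 in the dimmest. SAR1B had 2607 and 2714 in its brightest probe set. The next 3 had 1022 and 748 (log2 FC -0.45), 745 and 722, and 463 and 433. The dimmest SAR1B probe set had 10.6 on plastic and 63.3 on Myogel (log2 FC 2.57), above the range of -2.04 to 1.75 for its signal. The SAR1B probe sets thus differed in both directions.

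SEC23A and SEC23B encode the inner coat protein that acts on SAR1. SEC23B had 3136 on plastic and 3390 on Myogel. Its other probe sets, with 1042 and 1008 and with 244 and 207, were slightly lower on Myogel. SEC23A had 6059 and 5924 in its brightest probe set, but 912 on plastic and 484 on Myogel in its other one. That second value is 1.88-fold lower (log2 FC -0.91), outside the range of -0.58 to 0.57 for its signal, so the SEC23A probe sets differ by 0.88 in their log2 FC.

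The SEC24 proteins select the cargo. SEC24A had 445 on plastic and 424 on Myogel, SEC24B had 2553 and 2458, SEC24C had 1059 and 1063, and SEC24D had 503 and 538. All 4 paralogs had a log2 FC between -0.07 and 0.10. Dimmer probe sets of SEC24D had 45.1 and 75.8, and 5.22 and 12.5, and a dimmer one of SEC24A had 82.7 and 60.8.

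Among the SNAREs, SEC22B of the vesicle had 1003 on plastic and 926 on Myogel, and its dimmer probe set had 67.2 and 46.2. A further 2 probe sets of SEC22B that also carry the symbols of its pseudogenes were not used, and signal from these near-identical copies cannot be told apart there. STX5, its partner on the Golgi, had 96.2 on plastic and 89.9 on Myogel. The median log2 FC of both SNAREs was -0.11, but 0.00026 with the median log2 ratio set to 0 and -0.54 without probe sets of the suffixes _x, _s and _a, which leave only the dim one of SEC22B.

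**Figure D2:**
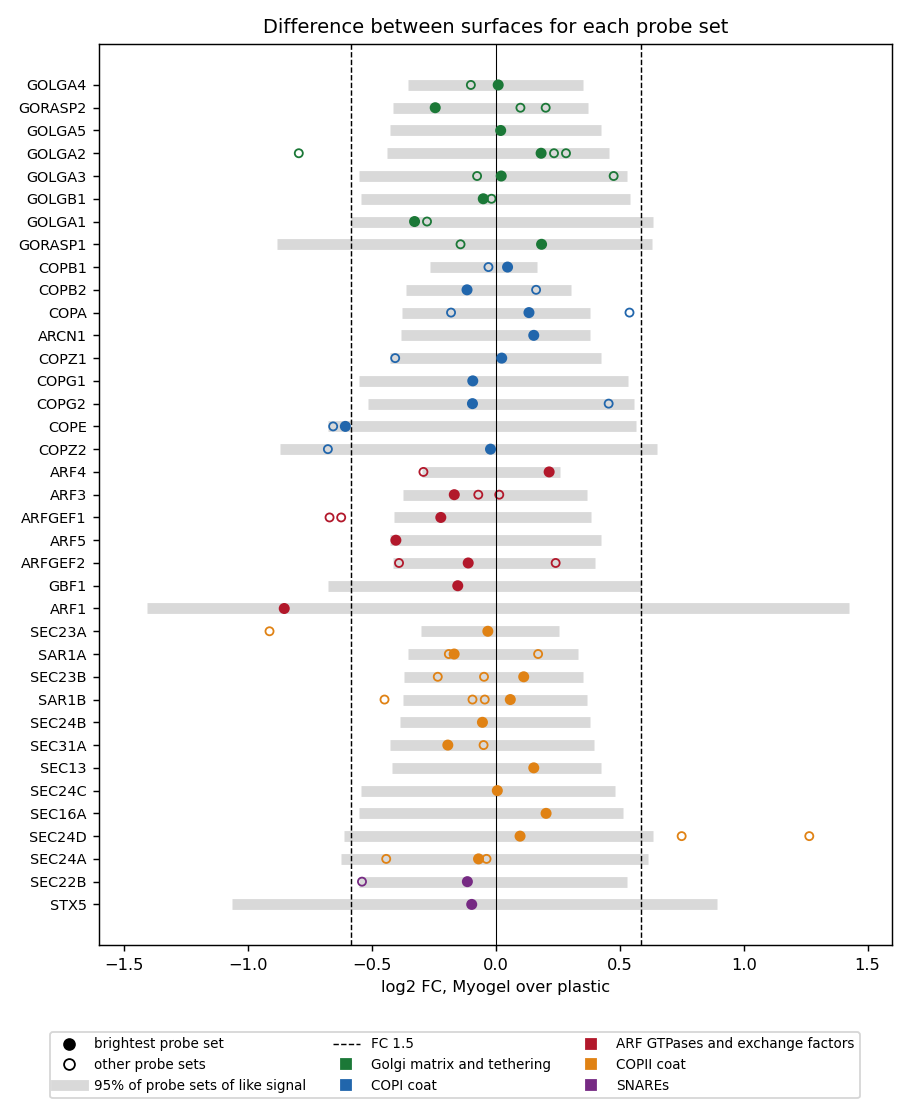
Log2 FC, Myogel against plastic (x axis), of the probe sets of each gene (rows), with filled circles for the brightest probe set and open circles for the others, coloured by class. Grey bars show the range of 95% of the 1000 probe sets nearest in signal to the brightest one, dashed lines mark FC 1.5, and 4 dim probe sets beyond a log2 FC of 1.6 in either direction, of COPA, COPB1, ARFGEF2 and SAR1B, are not drawn. Each filled circle lies on its grey bar, and only those of COPE and ARF1 are beyond a dashed line.

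When every probe set was counted, 3 of the 81 were higher by FC 1.5 and 11 (13.6%) were lower, beside 13.8% and 24.2% of all probe sets on the arrays. Of the 16 with a mean signal under 100, 3 were higher and 6 (37.5%) were lower. The shares over all probe sets under 100 were not computed, so these counts have no matched background. Those shares must lie above 13.8% and 24.2%, since the shares of the brighter probe sets lay below. Of the 65 with a mean signal of 100 or more, 0 were higher and 5 (7.69%) were lower. Over all 21633 such probe sets the shares were 2.24% and 4.52%. These 5, which are 6.17% of the 81 and 7.69% of the 65, also differed by at least 100 linear units. Of all probe sets on the arrays, 0.650% were higher and 0.916% were lower by both measures, but most probe sets on the arrays had a signal under 100, and among the 21633 of signal 100 or more the shares were 1.45% and 2.23%. The 5 probe sets belong to 4 genes, namely COPE, SEC23A, GOLGA2 and ARFGEF1, and each of them is lower on Myogel. For SEC23A, GOLGA2 and ARFGEF1 the brightest probe set stayed within FC 1.2. The higher ratio of 3′ to 5′ signal of ACTB on the Myogel array stands beside these lower probe sets, and its part in them was not tested, since the positions of the probes in the transcripts were not used here.

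**Figure D3:**
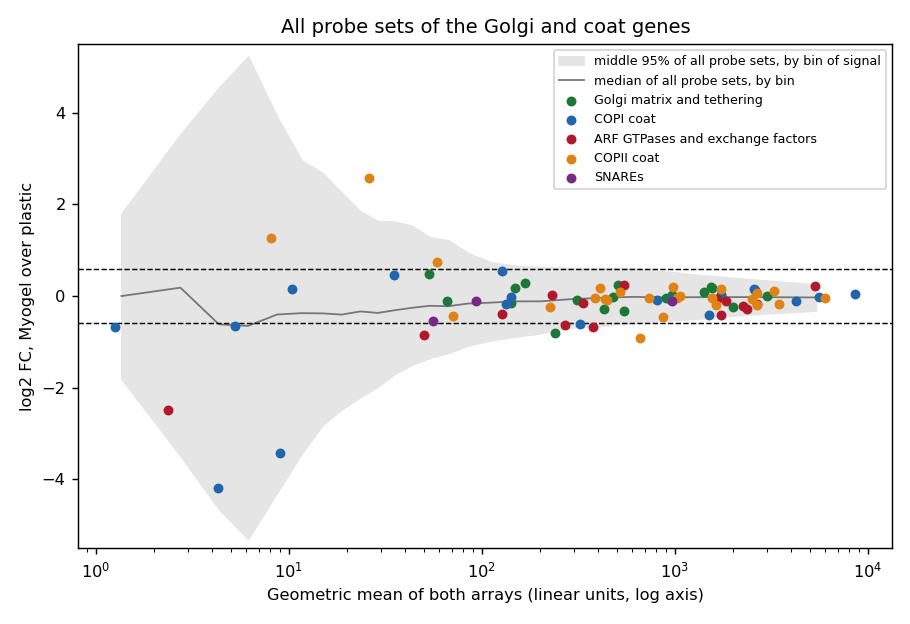
Log2 FC, Myogel against plastic (y axis), by the geometric mean intensity of both arrays (x axis, log axis) for the 81 probe sets, coloured by class. Grey shading and the grey line show the middle 95% and the median of all probe sets in 25 bins of signal, and dashed lines mark FC 1.5. Most of the probe sets lie near a log2 FC of 0 at high signal, and the ratios widen where signal is low. Probe sets outside the shading include those of SEC23A at -0.91, GOLGA2 at -0.80 and SAR1B at 2.57.

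More than 1 probe set was present for 26 of the 37 genes and 1 for the other 11. For 19 genes with 2 probe sets of a mean signal of 100 or more, the log2 FCs of the brightest pair had the same sign in 9 (47.4%), beside 56.3% of 4870 such genes over the whole array. The median absolute difference within a pair was 0.16 for the Golgi and coat genes and 0.21 for all genes, and the largest was 0.88, in SEC23A. The probe sets of SEC23A thus stand farthest apart among these pairs.

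Promoters of these genes were set beside the expression values, since stress of the Golgi or the endoplasmic reticulum is known to induce many such genes. RefSeq windows from 250 bases before to 50 after the most upstream listed start of each gene (GRCh38.p14) were matched by symbol for 33 of the 38 genes. Those without an entry were GOLGA4, ARF4, ARFGEF1, SEC24D and USO1. Both strands were searched for the core of the Golgi apparatus stress response element (GASE core, ACGTGGC), which the factor TFE3 binds, for the unfolded protein response element (UPRE, TGACGTGG) of XBP1 and ATF6, for the cyclic AMP response element (CRE, TGACGTCA), for the E-box CACGTG and for CCAAT. The endoplasmic reticulum stress response element (ERSE, CCAAT and CCACG with 9 bases between them), the CLEAR element of lysosomal genes and the first 7 bases of the UPRE (TGACGTG) were searched as well, so that 8 motifs were searched in all. The GASE core and the UPRE share letters, and TGACGTGGC holds both.

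The windows printed here run from 120 bases before to 10 bases after the start, 5′ to 3′ on the strand of the gene. They show the genes with the largest differences, ARF1 and COPE, SEC23A with its discordant probe set, and examples from each coat and the Golgi matrix. The examples were picked by hand and all hold the GASE core, which was found in 16 of the 33 windows. Capitals mark the GASE core or, where it lies on the other strand, its reverse complement.
ARF1, chr1:228082588-228082717, plus strand: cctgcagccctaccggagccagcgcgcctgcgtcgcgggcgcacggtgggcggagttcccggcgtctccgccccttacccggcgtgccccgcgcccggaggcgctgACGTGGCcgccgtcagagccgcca
SEC23A, chr14:39103226-39103355, minus strand: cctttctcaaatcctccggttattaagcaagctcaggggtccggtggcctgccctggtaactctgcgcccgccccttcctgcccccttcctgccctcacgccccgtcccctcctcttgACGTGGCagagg
SEC31A, chr4:82900560-82900689, minus strand: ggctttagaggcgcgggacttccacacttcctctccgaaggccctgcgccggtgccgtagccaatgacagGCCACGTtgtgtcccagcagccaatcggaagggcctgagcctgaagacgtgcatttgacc
COPB2, chr3:139389671-139389800, minus strand: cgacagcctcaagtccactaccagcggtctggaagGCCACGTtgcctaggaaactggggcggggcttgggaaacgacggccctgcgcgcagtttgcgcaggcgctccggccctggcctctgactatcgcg
COPG1, chr3:129249486-129249615, plus strand: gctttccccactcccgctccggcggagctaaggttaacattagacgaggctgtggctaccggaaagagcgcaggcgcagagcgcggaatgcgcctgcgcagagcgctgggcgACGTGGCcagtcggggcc
ARCN1, chr11:118572289-118572418, plus strand: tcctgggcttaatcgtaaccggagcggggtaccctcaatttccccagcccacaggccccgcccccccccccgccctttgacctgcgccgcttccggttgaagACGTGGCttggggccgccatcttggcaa
GORASP2, chr2:170929133-170929262, plus strand: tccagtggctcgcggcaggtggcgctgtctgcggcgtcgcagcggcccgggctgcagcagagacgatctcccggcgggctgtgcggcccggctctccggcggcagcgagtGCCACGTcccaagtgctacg
COPE, chr19:18919378-18919507, minus strand: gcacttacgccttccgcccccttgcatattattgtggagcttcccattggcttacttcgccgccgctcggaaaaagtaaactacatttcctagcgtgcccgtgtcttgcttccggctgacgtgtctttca

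The GASE core lay in the windows of 16 of 33 Golgi and coat genes (48.5%), beside 3.27% of the windows of all 27305 genes, 3.75% of 15842 protein-coding genes and 4.59% of the 8013 protein-coding genes at or above the median signal on these arrays. It was present for 7 of 10 COPII genes (SEC23A, SEC24A, SEC24C, SEC31A, SEC13, SEC16A and SAR1A), 4 of 9 COPI genes (COPB2, COPG1, ARCN1 and COPZ2), 3 of 7 Golgi matrix genes (GOLGA1, GOLGA5 and GORASP2), 1 of 5 ARF genes and exchange factors (ARF1) and 1 of 2 SNAREs (STX5). In ARF1 and STX5 it spans bases -14 to -8 from the start, in COPG1 -8 to -2 and in ARCN1 -18 to -12. Of the 17 matches, 9 lay wholly within the 100 bases before the start. With any listed start of a gene, an alternative chosen after the windows had been searched, 17 of 33 genes (51.5%) had a match, beside 5.90% of the brighter protein-coding genes.

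The UPRE was found for 10 of the 33 genes (30.3%), beside 0.806% of all genes and 0.986% of the brighter protein-coding genes. It overlapped the GASE core in 7 of them. The first 7 bases of the UPRE were present for 13 genes (39.4%, beside 2.01% of all genes and 2.68% of the brighter protein-coding genes), COPE among them at bases -4 to 3, where the printed COPE window has no capitals. The CRE and the ERSE were found in 0 of the 33 windows, beside 1.97% and 0.0769% of all genes and 3.31% and 0.112% of the brighter protein-coding genes. The E-box was found in 3 (9.09%, beside 7.40% of all genes and 10.6% of the brighter protein-coding genes), CCAAT in 9 (27.3%, beside 35.7% and 37.8%) and the CLEAR element in 1 (3.03%, beside 0.370% and 0.811%). A match is a description of letters and not a bound site.

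**Figure D4:**
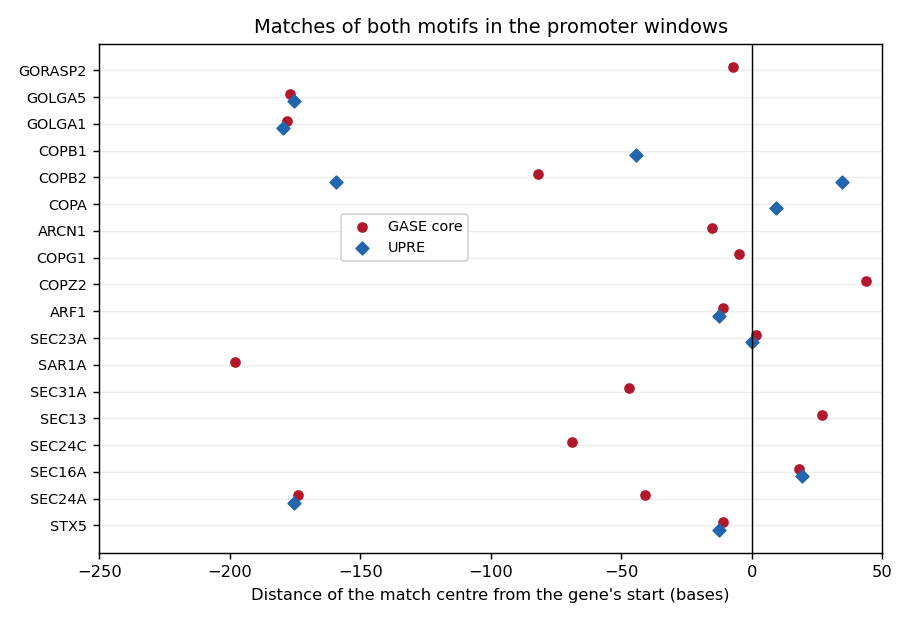
Position of each match of the GASE core (red circles) and the UPRE (blue diamonds) from the gene's start (x axis, in bases, with the start at the vertical line) for the genes with a match (rows). Matches of both motifs fall together in 7 genes, and 9 of the 17 GASE cores lie in the 100 bases before the start.

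Log2 FCs of genes with and without a GASE core are given side by side as a description. Whether the motif bears on expression was not tested. The 16 measured genes with it had a median log2 FC of -0.08, from -0.85 for ARF1, read by a single dim probe set, to 0.20 for SEC16A. The 17 measured genes with a window but without it had a median of -0.05, from -0.61 for COPE to 0.18. The ranges overlapped over most of their length.

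**Figure D5:**
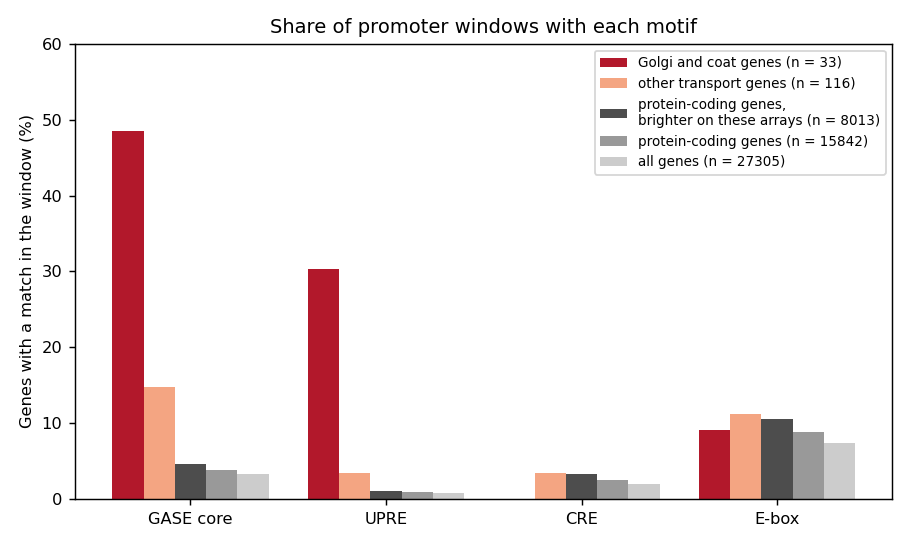
Share of genes (y axis, in percent) whose promoter window holds the GASE core, the UPRE, the CRE or the E-box (groups of bars), for the Golgi and coat genes and for the sets of genes named in the legend with their numbers. The bars of the Golgi and coat genes stand at 48.5% and 30.3% for the GASE core and the UPRE, above those of the other sets, and at 0 for the CRE.

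Other genes of transport between the endoplasmic reticulum and the Golgi were taken from 6 lists, in which 133 of 138 genes were measured. By FC 1.5, 2 of these were higher on Myogel and 8 were lower, and their median log2 FC was -0.05. Over all genes on the arrays 9.71% were higher and 17.5% were lower. Of the 120 that reached the median signal, 1 was higher (0.833%) and 4 were lower (3.33%), beside 0.930% and 1.66% of all such genes. The counts over the 133 were 3 higher and 4 lower if the arrays were quantile normalized or centred by loess. Among the 20 measured cargo receptors and p24 proteins, 0 were higher and 1 was lower. This was ERGIC3, a receptor that cycles between the endoplasmic reticulum and the Golgi, with 1010 on plastic and 534 on Myogel (log2 FC -0.92), outside the range of -0.58 to 0.54 for its signal, while its other probe sets were at or near the floor. TMED2, a p24 protein, had 10242 and 10432 in its brightest probe set, but 2731 on plastic and 1194 on Myogel (log2 FC -1.19) and 1455 and 375 (log2 FC -1.95) in the others. Of 239 probe sets of these genes with a signal of 100 or more, 5 (2.09%) were higher and 10 (4.18%) were lower by FC 1.5, near the shares over all such probe sets. Of 21 COPII accessory factors, 0 were higher and 1 was lower, namely TRAPPC1, a subunit of the TRAPP tethering complex, with 325 and 205.2. Of 22 SNAREs and fusion factors, 0 were higher and 1, the dim NAPA, was lower, and the largest difference among the brighter genes was that of GOSR2, a Golgi SNARE, with 484 and 344.

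Among 24 genes of the COG complex, golgins and scaffolds, 0 were higher and 1 was lower. This was COG8, a subunit of the COG tethering complex, with 758 on plastic and 495 on Myogel (log2 FC -0.61). That value was outside the range of -0.55 to 0.59 for its signal, while the other COG8 probe set had 219 and 276. Of 18 Golgi GTPases and ARF regulators, 0 were higher and 2 were lower. RAB30, a Golgi GTPase, had 193 on plastic and 124 on Myogel, and its other 4 probe sets were lower on Myogel as well. The other was RAB6A, read by a single dim probe set. The 28 glycosyltransferases, mannosidases and sugar transporters held 2 higher and 2 lower genes. ST3GAL4, a sialyltransferase, had 253 on plastic and 398 on Myogel (log2 FC 0.65), above the range of -0.68 to 0.59 for its signal. Its dimmer probe set had 55.9 and 49.1. SLC35C1, below the median signal, had 94.8 and 164 (log2 FC 0.79), above the range of -0.95 to 0.69 for its signal. ST6GAL1, another sialyltransferase, had 178 and 103, and MGAT4A had 42.2 and 20.7, both below the median signal. Each also had a dimmer probe set that was higher on Myogel, with 3.37 and 57.3 for ST6GAL1 and 1.61 and 5.26 for MGAT4A. Their remaining probe sets were lower. The last 3 genes, NAPA, RAB6A and TMED2 were named after their values had been seen. The GASE core lay in the windows of 17 of 116 of these genes (14.7%). By list it lay in 4 of 15 for the GTPases (26.7%), 4 of 17 for the cargo receptors (23.5%), 3 of 18 for the COPII accessory factors (16.7%), 3 of 22 for the COG complex and golgins (13.6%), 2 of 20 for the SNAREs and fusion factors and 1 of 24 for the glycosyltransferases (4.17%).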

How the data were processed

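RNA of HSC-3 cells on plastic and on Myogel was measured on 1 array per surface, each holding a pool of 3 wells. The deposited values are linear intensities per probe set, made by the authors with the dChip software. Neither its version nor how the arrays were normalized is given in the sources used here. The lowest value is a floor of 1, and no detection calls were used. Depth, for arrays, means signal above background.

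Probe sets were named from the platform annotation, with symbols updated by Entrez identifier (RefSeq, GRCh38.p14). Of 54613 probe sets, 41091 had 1 symbol, 1801 had several and 11721 are unnamed here. FC was the Myogel over the plastic intensity, with no further scaling and no test. The members and the lists were chosen with earlier results of these data known. All members are named, and in each other list up to 3 genes per direction that passed FC 1.5 and reached the median signal, or else the gene of that signal with the largest difference. The promoter motifs were chosen from general knowledge after the expression values had been seen. Python 3.11.15, numpy 2.4.6, pandas 2.3.3, statsmodels 0.14.6 (loess span 0.3) and matplotlib 3.10.9 were used, and the scripts were tested on simulated data.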

Additional observations from a re-analysis of the deposited data

How the results depend on the processing

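With 1 pooled array per surface, leaving out a replicate and pairing were not possible, and probe sets of 1 gene are the only repeated readings. Of the 37 genes, 2 were lower on Myogel with the values as deposited. This count was 1 after quantile normalization, loess centring, setting the median log2 ratio to 0, an offset of 16 or a required difference of 100 linear units, 0 with an offset of 50 or FC 2, 4 with FC 1.2, 5 with the mean over probe sets (ARF1, ARFGEF2, COPA, COPB1 and COPE) and 9 with any probe set. It was 4 with any probe set and a difference of 100 linear units, which was added after the data had been seen. The count of higher genes was 0 except with the mean over probe sets (1, SEC24D) and any probe set (2). Under these changed settings no share over all genes was computed, except with FC 1.2 for genes at or above the median signal. The rise to 5 and 9 lower genes therefore cannot be read as particular to the 37 genes.

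Of the 81 probe sets, 11 were lower, against 20 with FC 1.2, 3 with FC 2, 5 with a difference of 100 linear units, 7 after quantile normalization, 6 with the median log2 ratio at 0, 7 and 4 with offsets of 16 and 50, and 6 with the filter on low values. The 3 higher ones became 7 with FC 1.2, 0 with the difference of 100, 6 after quantile normalization or loess centring, and 1 with an offset of 50. Apart from the difference of 100 linear units, no share over all probe sets was computed under these changed settings. The other counts thus have no background. Setting the median log2 ratio to 0 moved the median log2 FC of the 37 genes from -0.05 to 0.056, and the medians by class to 0.12 for the Golgi matrix, 0.085 for COPI, -0.061 for the ARF class, 0.11 for COPII and 0.00026 for the SNAREs. Under that setting the median over all genes at or above the median signal was 0.075. With the mean over probe sets the medians were -0.19 for COPI, -0.40 for the ARF class and -0.21 for the SNAREs, and leaving out probe sets with the suffixes _x, _s or _a gave -0.54 for the SNAREs. For the other transport genes the 8 lower ones became 4 after quantile normalization or loess centring, and with the mean over probe sets the 2 higher ones became 5 and the 8 lower ones 12. Centring the median log2 ratio subtracted the median of all probe sets, -0.11, from every log2 FC. Each median therefore moved by the same amount. Means over probe sets take in dim ones far from 0. Examples are those of COPB1 (-4.20), COPA (-3.43) and ARFGEF2 (-2.49), with SAR1B (2.57) and SEC24D (1.26) going the other way. The SNARE value of -0.54 is that of the dim SEC22B probe set alone. What lay behind the other shifts was not tested.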
